A study of Homo sapiens with 6 samples.

Results

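The gp130 pathway was followed through 10 of the 58302 genes counted: the ligands IL11, IL6 and LIF, the receptor chains IL6ST, IL6R, IL11RA, LIFR and OSMR, the transcription factor STAT3 and the inhibitor SOCS3. They were selected by symbol, with measured values of this same comparison known, so their differences are given as a description and not as tested findings. RNA was sequenced from cells labelled as the human breast cancer line MDA-MB-231, which lacks hormone receptors and is classed as basal-like with mesenchymal features. All cells expressed an shRNA: 3 libraries came from cells with a control shRNA and 3 from cells with Smyca shRNA #1, which targets the lncRNA Smyca. No added ligand or other treatment is named for them. A single Smyca shRNA was sequenced, so its effect and any effect of that sequence on other transcripts cannot be told apart. The comparison asks how the transcriptome depends on Smyca.

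Cytokines of the IL-6 family share 1 signal-transducing receptor chain, gp130, which is encoded by IL6ST. IL-6 and IL-11 first bind their own chains, encoded by IL6R and IL11RA, and then engage gp130, while LIF pairs gp130 with the LIF receptor and oncostatin M pairs it with its own receptor. JAK kinases bound to gp130 then phosphorylate STAT3, which enters the nucleus and induces its targets, among them SOCS3, a protein that binds gp130 and shuts the signal down. In breast cancer, IL-11 is best known for its part in bone metastasis, and LIF and IL-6 as factors that tumor cells and stroma exchange.

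Total counts per library lay between 14999307 and 16501085. Smyca, counted as MIR23AHG, had 405, 317 and 343 reads in the control replicates and 165, 110 and 85 in the Smyca knockdown, without overlap. Of the markers of this line, VIM had 1122 to 4942 reads per library, CD44 147 to 603, AXL 286 to 828, CAV1 436 to 1637 and NT5E 7 to 106. Of those it should lack, ESR1 had at most 3 reads, PGR had 0 and GATA3 had 19 to 61. Epithelial genes that were looked up after their values were seen were high, with 66358 to 112201 reads for KRT8, 3826 to 5248 for EPCAM and 3443 to 7901 for VIL1, a microvillus protein of gut and kidney epithelium. Of 5 leukocyte, 3 endothelial and 4 fibroblast markers, LUM reached 115 reads, PECAM1 65 and the others at most 49, and PTPRC and KDR had 0 in all 6 libraries. Together with the 0 reads of IL6 given below, the high epithelial counts put the labelled cell line in doubt, and its identity was not tested. In control replicate 2 the second column deposited with the counts, an FPKM value, did not follow the counts of that library, so the members' differences that turn on this library are given by both columns. The levels per length, the gene likeness and the values of other genes use the counts unless the FPKM is named. Whether a shift in the number of cells of one kind or in RNA per cell lay behind a difference cannot be told apart in bulk RNA.

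Fold changes are control over Smyca knockdown, so a positive log2 value is a gene higher with Smyca intact. Normalized CPM (counts divided by the TMM-scaled library size) are the unit of level, and a gene was called where the ratio reached 1.5 or was no higher than 0.66 with an adjusted p under 0.05 (edgeR quasi-likelihood test, Benjamini-Hochberg over all genes). Of the 10 genes, 7 had enough reads to be tested and 3 did not (IL6, LIFR and OSMR). None of the 7 was called, while 0.0265% of the 15075 genes tested were. At an unadjusted p under 0.05 there were 4 (IL11, IL11RA, LIF and SOCS3; 19.2% of all genes tested), and DESeq2 called 3 (IL11, LIF and SOCS3; 5.55% of all genes). Of the 7, 6 had a positive log2 fold change (53.4% of all genes tested) and 1 a negative one, with a median of 0.77 against 0.04 over all genes tested. A ratio of at least 1.5 was reached by 4 (15.6% of all genes tested), and in 2 each control replicate lay above each knockdown replicate (12.4% of all genes tested). The SD of IL11, LIF, IL6R and SOCS3 was larger in the control, and that of IL6ST, IL11RA and STAT3 was larger in the knockdown.

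**Figure D1:**
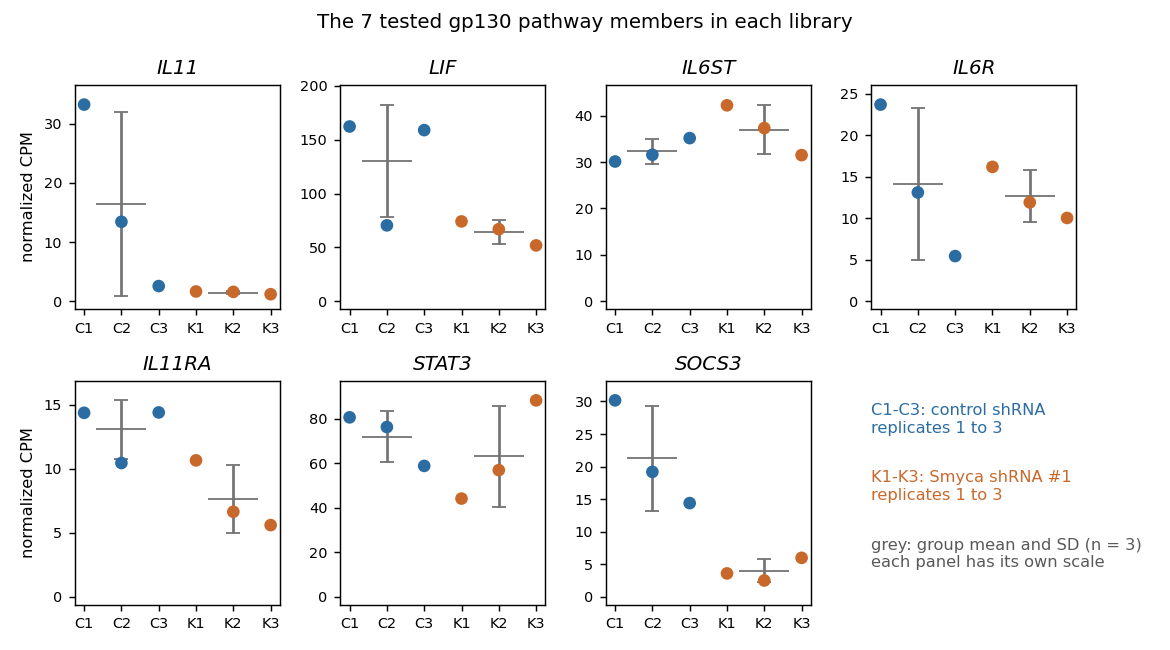
Normalized CPM (y axis, from 0, own scale per panel) of the 7 tested genes in control replicates C1 to C3 (blue) and Smyca knockdown replicates K1 to K3 (orange), with the group mean and SD in grey (n = 3). The groups are apart for IL11 and SOCS3, and IL11 spans 2.56 to 33.2 within the control alone.

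IL11 encodes interleukin-11, the ligand of the pathway with the largest difference with all 6 libraries. With control replicate 3 as the only control, that of LIF was larger (1.28 against 0.77 on the log2 scale). IL11 lies on the minus strand of chromosome 19, from 55364382 to 55370463 (GRCh38, GENCODE release 44). All values below in this paragraph are those of IL11. The library values were 33.2, 13.4 and 2.56 normalized CPM in the control replicates and 1.65, 1.58 and 1.19 in the Smyca knockdown replicates. The knockdown replicates lay close together, whereas the 3 controls were spread over more than an order of magnitude, and the lowest control was only just above the highest knockdown replicate. These values rest on 538, 218 and 40 reads in the control and 26, 25 and 18 in the knockdown. The means were 16.4 ± 15.5 and 1.47 ± 0.25 normalized CPM (SD, n = 3 each). On the log2 scale the difference was 3.47 (standard error 0.79), and IL11 was not called.

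The size of the IL11 difference was set by control replicates 1 and 2. Without both, control replicate 3 alone gave 0.77 (standard error 0.47) against the 3 knockdown replicates. Without control replicate 1 it was 2.44, and without control replicate 3 it was 3.96, where IL11 was called. The second column of control replicate 2 corresponded to 39 IL11 reads and not 218, close to the 40 of control replicate 3. With those reads in place of the counts, the log2 fold change was 3.07 (standard error 1.04), and control replicate 1 was then the single library with a high IL11 level. The direction was the same, higher in the control, under each of the 14 alternatives.

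The 250 bases before the RefSeq start of IL11 are shown because the window holds an AP-1 motif, which is in capitals (chr19:55370464-55370713, minus strand, GRCh38.p14, 5′ to 3′). Whether AP-1 acts on IL11 in these cells was not tested.
IL11: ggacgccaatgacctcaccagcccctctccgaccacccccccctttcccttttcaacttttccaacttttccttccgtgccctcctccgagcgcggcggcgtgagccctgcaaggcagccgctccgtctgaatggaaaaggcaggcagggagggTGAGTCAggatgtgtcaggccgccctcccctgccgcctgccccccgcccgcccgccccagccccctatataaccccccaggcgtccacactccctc
The match TGAGTCA begins 96 bases before the start. The motif searched, TGANTCA on both strands, occurs in 6.57% of the 35116 promoter windows of the same length in the RefSeq table. Windows were found for 9 of the 10 genes (13 windows), and LIF had none. The other motifs searched on both strands were TTCNNNGAA for STAT factors (6.57% of all windows), TGACGTCA for CREB (1.65%), ACGTG for hypoxia-inducible factors (18.5%) and GTCTAGAC for SMAD factors (0.182%). Of these, 2 of the LIFR windows hold a STAT match each (TTCCTTGAA and TTCATCGAA) and 1 of them an ACGTG match, and none of these letters occurs in the other windows. The windows follow RefSeq starts, and those of SOCS3, IL6 and LIFR do not lie at the GENCODE starts of these genes. The bases directly before these GENCODE starts were not searched, so whether SOCS3 has a STAT match there was not tested. A motif match is a description of the letters and no measure of binding.

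IL6 had 0 reads in all 6 libraries, which allows at most 0.182 to 0.200 CPM (3 reads of each total, counting error only). IL-6 is a cytokine that MDA-MB-231 cells are known to secrete, so this value, like the counts of KRT8, EPCAM and VIL1, goes against the labelled line. The antisense gene IL6-AS1 also had 0 reads in each library.

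LIF encodes leukemia inhibitory factor, the most abundant ligand of the 3 (chromosome 22, 30240453 to 30246759, minus strand). In the control replicates its level was 162, 70.5 and 159 normalized CPM, and in the Smyca knockdown replicates it was 74.1, 66.9 and 51.8. Control replicates 1 and 3 stood well above the rest, and control replicate 2 lay among the knockdown replicates, below the highest of them. The log2 fold change was 1.02 (standard error 0.31, means 131 ± 52.0 and 64.3 ± 11.4, SD, n = 3 each), and LIF was not called. By the counts, the library order of LIF was not that of IL11: control replicate 2 was high for IL11 and low for LIF, and control replicate 3 the reverse. The second column of control replicate 2 held 2815 LIF reads where the counts held 1145. With it, all 3 controls were above all 3 knockdown replicates and the log2 fold change was 1.32 (standard error 0.16). Control replicate 3 alone gave 1.28 (standard error 0.23). LIF-AS2, a gene on the opposite strand that overlaps the 5′ end of LIF, had 49, 16 and 71 reads in the control and 34, 28 and 29 in the knockdown. Control replicate 2 was the lowest there too, and the strand setting of the counting is not given in the sources used here.

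**Figure D2:**
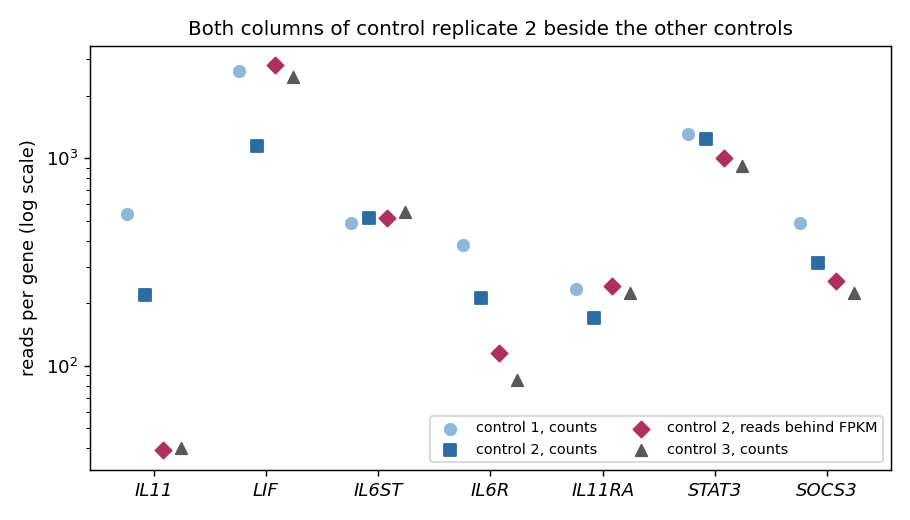
Reads per gene (y axis, log scale) of the 7 tested genes in control replicates 1, 2 and 3 by their counts, and in control replicate 2 by its FPKM column. For IL11 the 39 reads behind the FPKM lie at control replicate 3 (40) and not at the counts of the same library (218), and for LIF they lie at 2815 against 1145.

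The 3 tested receptor chains had log2 fold changes from -0.20 to 0.77. IL6ST, the gp130 chain itself (chromosome 5, 55935095 to 55995022, minus strand), was at 30.1, 31.6 and 35.2 normalized CPM in the control and 42.2, 37.3 and 31.5 in the Smyca knockdown. The groups overlapped, and IL6ST was the 1 tested gene of the 7 with a negative log2 fold change, -0.20 (standard error 0.16). It stayed negative under every alternative, between -0.31 and -0.10, and was called in none. IL6STP1, a processed pseudogene of IL6ST, had 0 reads in each library.

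IL11RA, the chain that binds IL-11 (chromosome 9, 34652162 to 34661902, plus strand), was at 14.4, 10.5 and 14.4 normalized CPM in the control and 10.7, 6.65 and 5.61 in the knockdown. Control replicate 2 was again the lowest control and lay just below knockdown replicate 1, so the groups overlapped by this 1 pair. The log2 fold change was 0.77 (standard error 0.29) and remained between 0.59 and 1.08 over the 14 refits, and none of these called it. By the counts, the order of its controls was that of LIF, with replicates 1 and 3 alike and replicate 2 lower. By its FPKM column control replicate 2 held 242 IL11RA reads and was level with the other controls. All 3 controls then lay above all knockdown replicates, at 0.89 on the log2 scale (standard error 0.27).

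IL6R, the chain that binds IL-6 (chromosome 1, 154405193 to 154469450, plus strand), was at 23.7, 13.1 and 5.44 normalized CPM in the control and 16.2, 11.9 and 10.04 in the knockdown. The controls enclosed the knockdown replicates on both sides, and control replicate 3 was the lowest of the 6 libraries. The log2 fold change was 0.15 (standard error 0.46), and it turned negative under 5 of the 14 alternatives, down to -1.25 for control replicate 3 alone. No direction can be given for IL6R.

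The receptors of LIF and oncostatin M were close to undetected. LIFR (chromosome 5, 38474668 to 38608354, minus strand) had 2, 0 and 1 reads in the control and 0 in each knockdown replicate. OSMR (chromosome 5, 38845858 to 38945596, plus strand) had 5, 4 and 6 reads in the control and 2, 0 and 1 in the knockdown. Both were too low to test, and no fold is given. So the LIF transcript was abundant in libraries in which that of its own receptor chain was at or under 3 reads.

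The signal transducer STAT3 (chromosome 17, 42313324 to 42388540, minus strand) was at 80.7, 76.3 and 58.8 normalized CPM in the control and 44.2, 57.0 and 88.3 in the knockdown. Knockdown replicate 3 was the highest library and knockdown replicate 1 the lowest, so the knockdown spread enclosed the controls. The log2 fold change was 0.19 (standard error 0.25), and it turned slightly negative without knockdown replicate 1 (-0.02) and for control replicate 3 alone (-0.13).

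SOCS3, the feedback inhibitor that STAT3 induces (chromosome 17, 78356778 to 78360077, minus strand), was with IL11 1 of the 2 tested genes without overlap. Its level was 30.2, 19.2 and 14.4 normalized CPM in the control replicates and 3.62, 2.53 and 6.01 in the knockdown replicates. All controls stood well above all knockdown replicates, on 489, 312 and 225 reads against 57, 40 and 91. The log2 fold change was 2.39 (standard error 0.39, means 21.3 ± 8.08 and 4.05 ± 1.78, SD, n = 3 each), and SOCS3 was not called. It lay between 1.80 and 2.78 over the alternatives. The lowest of these, 1.80 (standard error 0.44), came from control replicate 3 alone, which gave 0.77 for IL11. The divergent lncRNA SOCS3-DT next to it had 29, 16 and 6 reads in the control and 2, 2 and 3 in the knockdown, again without overlap.

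**Figure D3:**
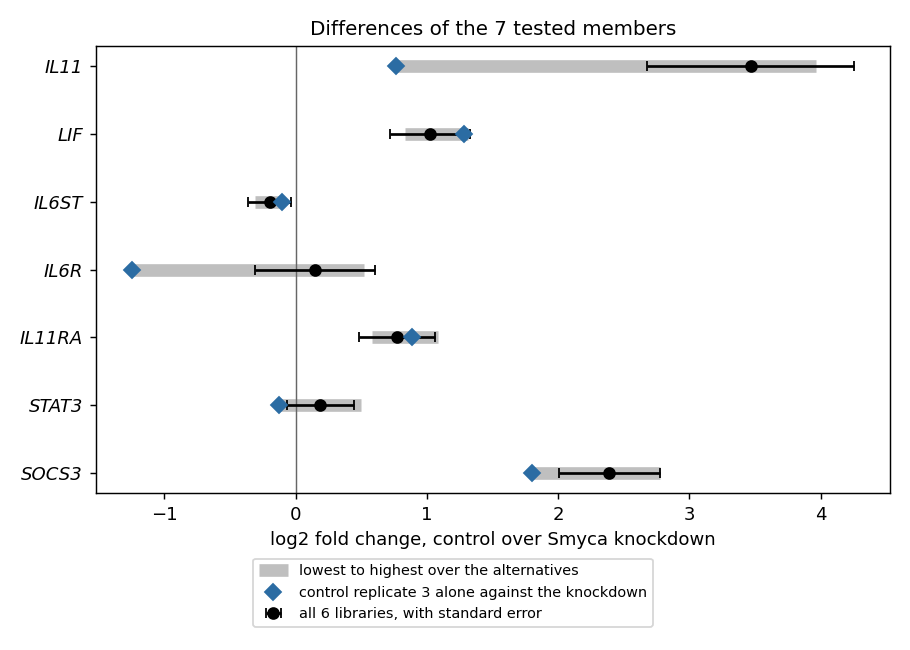
Log2 fold change, control over Smyca knockdown (x axis), of the 7 tested genes with all 6 libraries (black, with standard error), with its lowest to highest value over the 14 alternatives (grey bar) and with control replicate 3 as the only control (blue diamond). SOCS3, LIF, IL11RA and IL11 stay above 0 throughout, although IL11 drops from 3.47 to 0.77. IL6ST stays below 0, and IL6R and STAT3 cross 0.

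The count of genes at a ratio of 1.5 or more was 4 with all 6 libraries, 4 with control replicate 3 alone and 4 with the FPKM-derived reads of control replicate 2. In each case these were IL11, LIF, IL11RA and SOCS3, beside 15.6%, 19.2% and 16.6% of all genes tested. The count in which all controls used lay above all knockdown replicates was 2 with all 6 libraries and 4 in both other readings, where LIF and IL11RA no longer overlapped. Over all genes tested the share was 12.4% with all 6 libraries, 32.7% with control replicate 3 alone and 14.9% with the FPKM-derived reads, and a single control has fewer libraries with which to overlap.

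Levels between genes were compared per length, as normalized CPM per kilobase of the gene length behind the deposited FPKM. In the control LIF was highest at 57.2 ± 22.8, followed by STAT3 at 42.1 ± 6.75, and the library ranges of these 2 overlapped. SOCS3 (13.7 ± 5.22), IL11 (12.7 ± 12.04), IL6ST (12.2 ± 0.979), IL11RA (12.1 ± 2.10) and IL6R (8.20 ± 5.34) came next, and neighbours among them did not differ beyond their spread. OSMR (0.173 ± 0.0382) and LIFR (0.0275 ± 0.0272) were far below (SD, n = 3 each throughout). In the Smyca knockdown the order was STAT3 (36.9 ± 13.3) and LIF (28.2 ± 4.98), which overlapped, then IL6ST (14.0 ± 2.03), then IL6R (7.40 ± 1.84) and IL11RA (7.08 ± 2.47), which overlapped, then SOCS3 (2.62 ± 1.15) and IL11 (1.14 ± 0.194). IL11 and SOCS3 were at the level of gp130 itself in the control and the lowest of the 7 tested genes in the knockdown, although for IL11 this control mean spans 1.99 to 25.7.

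The rest of the pathway was read from 48 further genes, listed by role with earlier results of these data known. Of these, 38 could be tested and 0 were called (0.0265% of all genes tested). A log2 fold change above 0 was found for 26 (53.4% of all genes tested) and one below 0 for 12, with a median of 0.16. At an unadjusted p under 0.05 there were 8 (19.2% of all genes tested), and DESeq2 called 5 (BCL3, FOS, JUNB, PIM1 and VEGFA, where it called 5.55% of all genes). In the examples below, the gene with the highest and the lowest value of each list is named.

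Of 8 other ligands, 3 could be tested. CTF1, which encodes cardiotrophin-1, had the highest value, 1.18 (standard error 0.59), on 10 to 55 reads, and its sign changed with control replicate 3 alone (-0.51). CNTF, ciliary neurotrophic factor, had the lowest, 0.26 (standard error 0.39), and it changed sign without control replicate 3 (-0.20). Of 3 other receptors, IL27RA, the gp130 partner for IL-27, was the one tested, at -0.33 (standard error 0.17).

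All 9 kinases, STATs and adaptors were tested, with a median of 0.03. Of these, 5 were above 0 (53.4% of all genes tested) and 4 below, and 1 was at a ratio of 1.5 or more (15.6%). This was JAK2, a kinase bound to gp130, with 0.60 (standard error 0.31), at 5.49, 4.49 and 4.03 normalized CPM in the control and 2.54, 2.60 and 4.09 in the knockdown. These groups overlapped at control replicate 3. PTPN11, which encodes the phosphatase SHP2 that docks on gp130, had the lowest, -0.34 (standard error 0.20), and its controls (181 to 251 normalized CPM) lay just below its knockdown replicates (254 to 355). Of 8 inhibitors and shedding enzymes, 7 were tested, with a median of 0.12. SOCS2 was highest at 0.42 (standard error 0.41), and at 0.0047 without control replicate 3. ADAM10, a protease known to shed the IL-6 and IL-11 receptors, was lowest at -0.25 (standard error 0.15), also with all controls below all knockdown replicates. PTPN6, named after its values were seen, lay apart the other way (110 to 118 normalized CPM in the control, 91.5 to 95.7 in the knockdown). Of all genes tested, 12.5% lay apart with the control lower and 12.4% with it higher. SOCS1, which like SOCS3 inhibits JAK kinases directly, was too low to test, with at most 1.35 normalized CPM in any library.

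Of 20 genes known as STAT3 targets, 18 were tested, with 13 above 0 (53.4% of all genes tested), 5 below and a median of 0.22. In 7 of them all controls lay above all knockdown replicates, and in 0 the reverse, where 12.4% of all genes tested lay apart with the control higher and 12.5% with it lower. A ratio of 1.5 or more was reached by 7 (15.6% of all genes tested) and one of 0.66 or less by 3, MUC1, NNMT and CCND1 (5.54%), the last 2 of which are named after their values were seen. FOS had the highest value, with 49.5, 47.1 and 123 normalized CPM in the control and 8.32, 5.64 and 8.25 in the knockdown. On the log2 scale this was 3.30 (standard error 0.40), which was called under 6 of the 14 alternatives and not with all 6 libraries. MUC1 had the lowest, -1.30 (standard error 0.59), and its knockdown replicates were split, at 26.8, 19.6 and 3.37 normalized CPM against 6.29, 6.46 and 7.43 in the control. Genes of this list also answer to other factors: FOS and JUNB belong to AP-1, and VEGFA is a classical hypoxia-inducible gene.

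**Figure D4:**
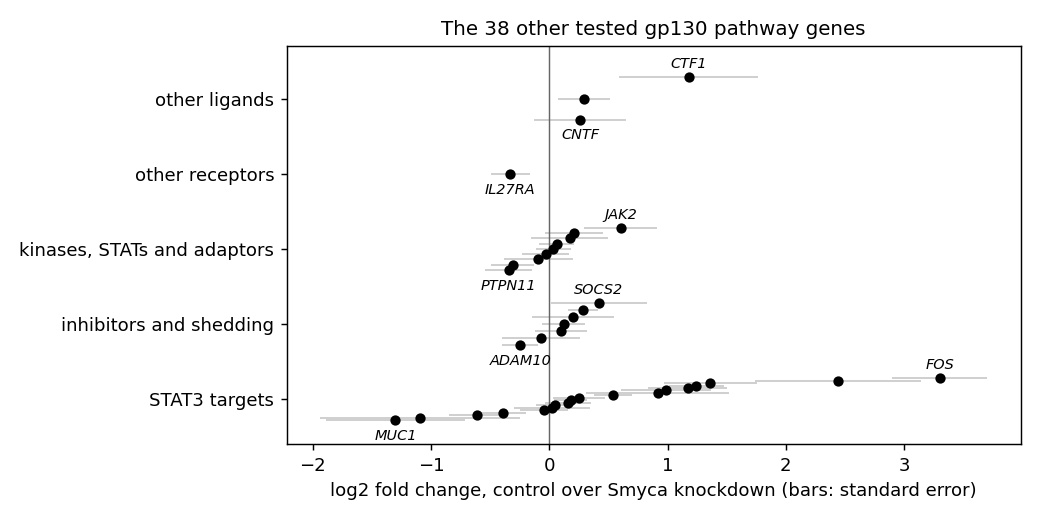
Log2 fold change, control over Smyca knockdown (x axis, bars are standard errors), of the 38 other tested genes, grouped by role, with the highest and lowest of each list named. The kinases, STATs, adaptors and inhibitors lie between -0.34 and 0.60, and the STAT3 targets spread from -1.30 for MUC1 to 3.30 for FOS.

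The libraries differed in other programs in the same order as some of these genes. The mean level of 15 hypoxia-inducible genes, as log2(normalized CPM + 1), was 6.56, 5.88 and 4.73 in the control replicates and 4.37, 4.16 and 4.60 in the knockdown replicates. All 15 had a positive log2 fold change (53.4% of all genes tested) and 7 no overlap with the control higher (12.4%), and their summed level was 1682 to 5680 normalized CPM in the control and 1614 to 2066 in the knockdown. By the counts, IL11 followed the same order within the control, with replicate 1 highest, replicate 2 next and replicate 3 near the knockdown. For 8 AP-1 genes the mean was 6.98, 6.56 and 7.14 in the control and 5.63, 5.24 and 5.56 in the knockdown, so that here control replicate 3 was highest and the groups were apart. All 8 had a positive log2 fold change (53.4% of all genes tested), 6 had no overlap (12.4%) and 1, JUN, was called (0.0265%). By the counts, LIF and IL11RA shared with the AP-1 list that control replicate 2 was the lowest control. By the FPKM-derived reads control replicate 2 was at 7.28 for the AP-1 list and 4.77 for the hypoxia list. It was then the highest control for the AP-1 list and had the most LIF and IL11RA reads of the controls (2815 and 242). In none of these was it still the lowest control. For the hypoxia list control replicates 2 and 3 were then close (4.77 and 4.73), as for IL11 (39 and 40 reads). Control replicate 1 was then the one library with a high hypoxia level. For the markers of the labelled line, all 5 of VIM, CD44, AXL, NT5E and CAV1 had a positive log2 fold change (53.4% of all genes tested), 4 of them a ratio of 1.5 or more (15.6%), and 2, VIM and NT5E, no overlap (12.4%). Their summed level was 236 to 501 normalized CPM in the control and 139 to 231 in the knockdown. KRT8 and VIL1 were lower in all controls than in all knockdown replicates, with log2 fold changes of -0.47 (standard error 0.17) and -0.62 (standard error 0.19), while EPCAM overlapped. None of these 8 genes was called. The part of hypoxia, of AP-1 or of these markers in the differences of IL11, LIF, IL11RA and SOCS3 was not tested.

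**Figure D5:**
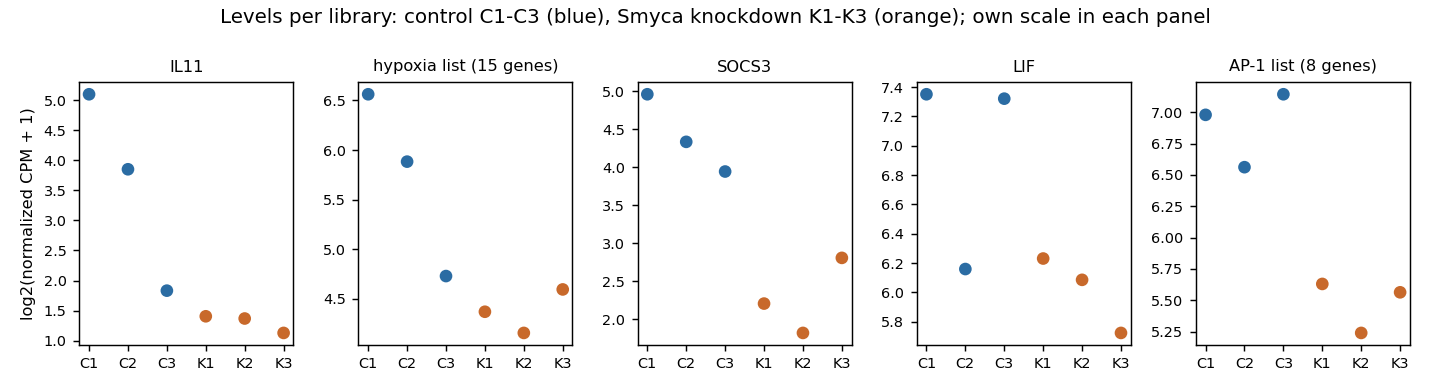
Log2(normalized CPM + 1) per library (y axis, own scale per panel, not from 0) of IL11, SOCS3 and LIF and the mean of 15 hypoxia and 8 AP-1 genes, in control replicates C1 to C3 (blue) and knockdown replicates K1 to K3 (orange). IL11 and the hypoxia list (6.56, 5.88 and 4.73 in the control) have C1 as the highest and C3 as the lowest control, while LIF and the AP-1 list (6.98, 6.56 and 7.14) have C2 as the lowest control by its counts, which are what is plotted.

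Across the 6 libraries, the genes whose log2(normalized CPM + 1) was most like that of IL11 among 13934 genes were ECM1, SLC2A3, EXOC1, HLA-K and ANKRD24, with Pearson correlations of 0.999, 0.998, 0.997, 0.997 and 0.997. SLC2A3, a glucose transporter, was at 1079, 512 and 215 normalized CPM in the control and 175, 158 and 145 in the knockdown, and ECM1, a secreted matrix protein, at 16.8, 10.9 and 4.29 against 3.68, 3.48 and 3.10. In both, as in IL11, control replicate 1 was highest and control replicate 3 the lowest control. Most like LIF were EIF3M, ANKRD10-IT1, CCDC159, PKD1P2 and TCAIM, with correlations of 0.993, 0.986, 0.986, 0.980 and 0.978. EIF3M, a translation initiation factor subunit, spanned only 222 to 243 normalized CPM, so that this likeness is one of library order and not of size. With 6 points from the same libraries, these correlations describe a shared profile and carry no test.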

How the data were processed

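RNA of the line MDA-MB-231 with control shRNA (3 libraries) or Smyca shRNA #1 (3 libraries) was sequenced after rRNA removal, with paired-end, strand-specific libraries. Mapping to GRCh38 used TopHat2 2.0.12 and counting used HTSeq, and the authors deposited a raw read count for each of 58302 Ensembl genes in each library. Each file also holds an FPKM column deposited by the authors, normalized by length and library total. The annotation release and the strand setting of the counting are not given in the sources used here. Mapping and counting were taken as deposited. The FPKM values were used only to obtain gene lengths and, for control replicate 2, whole reads: in that library the FPKM column followed the counts for 1.62% of genes, against 100% in the others, and corresponded to 16759253 whole reads over 23593 genes (100% of the values under 1000 reads within 0.01 of a whole number).

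Symbols came from GENCODE release 44, which matched 57532 identifiers. Promoter windows came from RefSeq (GRCh38.p14). The test was run on the counts with edgeR 4.0.16 in R 4.3.3 (TMM scaling, filterByExpr, quasi-likelihood test of control against knockdown over all 6 libraries, no covariate) with Benjamini-Hochberg adjustment over the 15075 genes that passed the filter. DESeq2 1.42.0 was an alternative. The study's own caller, DESeq, was not used. For a call the ratio had to reach 1.5, or be no higher than 0.66, with an adjusted p under 0.05. The 10 genes, the further lists and the alternatives were chosen with earlier results of these data known. All 10 genes were named, and of each further list the genes called and those with the highest and the lowest log2 fold change, the 5 genes most like IL11 and LIF (mean of 1 normalized CPM or more), genes sharing a name with a member, and genes of the hypoxia, AP-1 and marker lists. KRT8, EPCAM and VIL1 were added, and PTPN6, NNMT and CCND1 named, after their values were seen.

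Alternatives were other size factors, other filters, DESeq2, the replicate number as a block, each replicate left out, the FPKM-derived reads of control replicate 2, other call criteria and, added after the data had been seen, both control replicates 1 and 2 left out. Where a setting left 1 control, its spread was taken from the knockdown replicates. Totals of 14999307 to 16501085 counts put 3 reads at 0.182 to 0.200 CPM. Beyond counting noise the replicates varied by a biological coefficient of variation of 25.2%. The study calls the replicates biological repeats. Whether they were separate cultures is not given in the sources used here, and p-values measure the spread between these libraries.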

Additional observations from a re-analysis of the deposited data

Results flagged for a closer look

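The FPKM column of control replicate 2, used above only as an alternative to the counts, held reads for the 7 tested genes that differ from the counts of the same library. It corresponded to 39 reads for IL11 (218 by the counts), 2815 for LIF (1145), 518 for IL6ST (513), 115 for IL6R (213), 242 for IL11RA (170), 1001 for STAT3 (1240) and 256 for SOCS3 (312). For the same genes control replicate 3 had 40, 2481, 549, 85, 225, 919 and 225 counts. Which of the 2 columns belongs to the library labelled control replicate 2 was not tested.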

How the results depend on the processing

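With all 6 libraries, 0 of the gp130 pathway genes, 0 of the further pathway genes and 4 of all genes were called. Without the filter on low counts the numbers were 3, 7 and 916, with DESeq2 3, 5 and 836, and at an unadjusted p under 0.05 4, 8 and 2893. Total counts without a composition factor gave 0, 1 and 8, the FPKM-derived reads of control replicate 2 gave 0, 1 and 10, and control replicate 3 as the only control 0, 1 and 6. Leaving out 1 replicate at a time gave 0 to 2, 0 to 7 and 0 to 1628. The highest of each came without control replicate 3, where IL11 and SOCS3 were called, and all genes gave 0 without control replicate 1, knockdown replicate 1 or knockdown replicate 2. The replicate block gave 0, 0 and 0, with a log2 fold change of 2.96 for IL11. Replicates with the same number deviated together with correlations of -0.01 to 0.08, by the counts, so no pairing by number was seen. Whether libraries with the same number were prepared together was not tested. Over the fits without 1 replicate IL6R ranged from -0.45 to 0.52, STAT3 from -0.021 to 0.50 and CNTF from -0.20 to 0.50. IL6R changed sign with the replicate block (-0.042), the reads behind the FPKM column (-0.11), without control replicate 1 (-0.45), without knockdown replicate 3 (-0.0074) and with control replicate 3 as the only control (-1.25). STAT3 did so without knockdown replicate 1 (-0.021) and with control replicate 3 alone (-0.13), CTF1 with control replicate 3 alone (-0.51) and CNTF without control replicate 3 (-0.20). Of the 17 genes refitted (the 7 tested members, MIR23AHG and the highest and lowest of each list), the other 13 kept their direction under each of the 14 alternatives. SOCS2 did so only just, at 0.0047 without control replicate 3. The cause of these shifts was not tested. LIFR and OSMR, at 0 to 6 reads, are too low for a comparison at this depth.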
